A study of Homo sapiens with 8 samples.

Results

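The expression of 36 genes of the G2/M transition and mitosis was measured on Affymetrix arrays in Saos-2 cells, an established human osteosarcoma line that is p53-null by its label, before and during treatment with a compound labelled Prima. The genes were taken from probe sets of the array that the platform annotation maps to exactly 1 gene symbol: 77 such probe sets belong to the 36 genes, of 41091 such probe sets and 19775 genes on the array. The 36 genes are CCNB1, CCNB2, CDK1, CCNA2, CDC25B, CDC25C, CKS2, PLK1, AURKA, AURKB, NEK2, BUB1, BUB1B, BUB3, TTK, CDC20, UBE2C, CENPA, CENPE, CENPF, NDC80, KIF11, KIF14, KIF20A, KIF23, KIF2C, TPX2, NUSAP1, HMMR, DLGAP5, PRC1, ASPM, TOP2A, MKI67, BIRC5 and ECT2. They are grouped by function, and the rule uses no measured value, but the list was drawn up with earlier results of these data known. The study asked how the compound acts on the transcriptome of cells that lack p53. All cells were Saos-2 and p53-null; 3 arrays came from untreated cells (replicates 1, 2 and 3), 3 from cells treated for 6 h (replicates 1, 2 and 3) and 2 from cells treated for 12 h (replicates 1 and 3). The 12 h replicate 2 was not analysed here. The labels give no dose, no vehicle and no time for the untreated cells, so both time points were set against the same 3 untreated arrays. Nor do they say whether the replicates were grown separately; the p-values therefore reflect only how far these arrays spread, and that spread may be technical.

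Entry into mitosis is driven by CDK1 bound to B-type cyclins, which CDC25 phosphatases switch on and the kinases WEE1 and PKMYT1 hold off. Mitotic kinases then help to build the spindle, and the spindle checkpoint delays anaphase until the chromosomes are attached to it. The anaphase-promoting complex (APC/C) with CDC20 then marks cyclin B for destruction, which ends mitosis. Transcripts of these genes accumulate late in the cell cycle, under B-MYB, FOXM1 and the DREAM repressor complex, so their level in a population follows, among other things, the share of cells in G2 and M. In bulk RNA, a smaller share of such cells and less of the RNA per cell cannot be told apart.

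The values are MAS5 signals, in which each array is scaled to the same trimmed mean. One gene was represented by its brightest probe set, and differences are given as log2 of the signal with the standard error of a limma fit over all 8 arrays. All 36 genes lay above the filter on dim genes and were among 12063 genes tested. The median signal over all probe sets was 50.8 and 47.5 on the untreated and 6 h replicate 2 arrays and between 14.2 and 24.9 on the other 6, and the ratio of the 3′ to the 5′ control probe set of ACTB, which reads RNA integrity, ran from 1.12 to 1.73 on 7 arrays and was 2.29 on 12 h replicate 1. Of the 8 osteoblast-lineage markers checked, 7 had a probe set of their own, and all 7 lay above the filter, with a summed signal of 6731 to 8337 on untreated arrays, 6164 to 9090.09 at 6 h and 8306 to 8509 at 12 h. The summed signals of 3 blood cell markers were at most 98.9, 179 and 63.0 in the same groups, those of 2 endothelial markers at most 136, 161 and 41.2, and those of 3 epithelial markers lay between 160.5 and 268 on all arrays. Above the filter lay also 2 of the 3 blood, 1 of the 2 endothelial and 1 of the 3 epithelial markers. The liver marker ALB lay below the filter. Median signals of the osteoblast-lineage markers ran from 54.0 (IBSP) to 3648 (COL1A1), and the epithelial marker EPCAM had 186.

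At 6 h the 36 genes together lay close to the untreated level. Their median log2 difference was -0.029, with 13 of 36 above 0, against a median of 0.022 and 53.0% above 0 over all genes tested. The spindle checkpoint genes BUB1, BUB1B, BUB3 and TTK had values between 0.0048 and 0.061, and the values farthest from 0 belonged to CENPA (-0.58), AURKB (-0.56) and ASPM (0.36). For AURKB and ASPM the second probe sets, dimmer with mean signals of 46.2 and 126, gave 0.53 and -0.019. The third of ASPM, with a mean signal of 48.7, gave -0.77. With limma and Benjamini-Hochberg adjustment at 0.05, 0 of 36 genes and 0 of 12063 genes (0.0%) passed; at an unadjusted p under 0.05, 0 of 36 and 79 of 12063 genes (0.655%) did. The untreated and 6 h arrays did not overlap for 1 of the 36 genes, CENPA, in the lower direction, against 1.51% of all genes, and for 0 of 36 in the higher direction, against 2.03%.

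At 12 h most of the 36 genes had a higher mean than in untreated cells, and no single difference passed the test. Their median log2 difference was 0.22, with 31 of 36 above 0, against a median of 0.083 and 59.9% above 0 over all genes. By the brightest probe sets, CDC25B (0.45), CENPF (0.40), HMMR (0.39) and ASPM (0.36) had the largest positive values, and CENPA the largest negative one (-0.32). The probe sets next in brightness gave 0.27 for HMMR, 0.0062 for CENPF and -0.46 for ASPM. The ASPM one was much dimmer, with a mean signal of 126 against 1065. Dimmer still were the third probe sets of CENPF (-0.022) and ASPM (-0.77). Again 0 of 36 and 0 of 12063 genes (0.0%) passed limma with Benjamini-Hochberg adjustment, and at an unadjusted p under 0.05 there were 0 of 36 and 74 of 12063 (0.613%). The arrays did not overlap, in the higher direction, for AURKA and BIRC5, 2 of 36 genes against 9.6% of all genes, and in the lower direction for 0 of 36 against 4.89%. With the replicate number as a block the median was 0.081, with 27 of 36 above 0 against 6928 of 12063 over all genes. Without untreated replicate 2 it was 0.055 (24 of 36). These medians were near the all-gene medians of 0.045 and 0.037 in those fits.

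Between 6 h and 12 h, 34 of 36 genes had a positive difference, with a median of 0.24 against 0.061 and 57.2% above 0 over all genes. CDC25B (0.68), KIF23 (0.59), KIF20A (0.59) and NDC80 (0.56) had the largest values. The lowest were those of KIF14 (0.0029), ASPM (-0.0030) and NEK2 (-0.055). Here too 0 of 36 and 0 of 12063 genes (0.0%) passed limma with Benjamini-Hochberg adjustment, and at an unadjusted p under 0.05 there was 1 of 36, CDC25B, and 88 of 12063 (0.73%). The 12 h arrays lay above all 6 h arrays for 7 of 36 genes (CDC25B, AURKA, BUB1, NDC80, KIF23, NUSAP1 and BIRC5) against 7.1% of all genes, and below them for 0 of 36 against 4.5%. The block gave a median of 0.12 with 27 of 36 above 0, against 0.023 and 6411 of 12063 over all genes. Leaving out 6 h replicate 2 gave 0.12 with 29, and leaving out 12 h replicate 3 gave 0.12 with 25. The comparisons at 12 h share the 2 treated arrays, and those against untreated cells share the 3 untreated arrays, so the 3 sets of values are not independent.

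**Figure D1:**
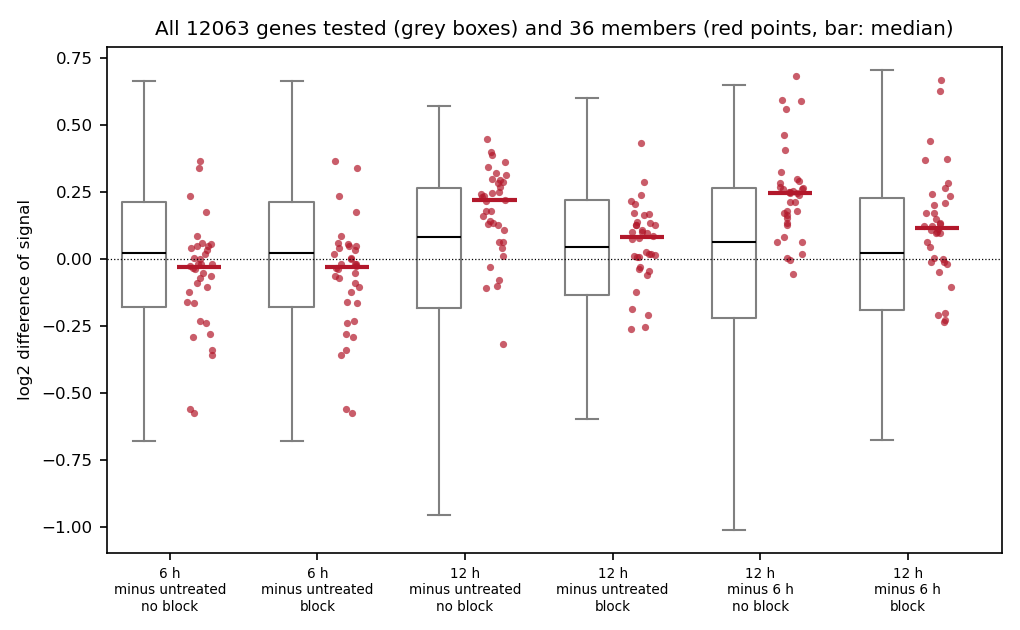
Log2 difference of signal (y axis) in the 3 comparisons, each fitted without and with the replicate number as a block; grey boxes hold the quartiles of the 12063 genes tested with whiskers from the 5th to the 95th percentile, and red points are the 36 genes with a bar at their median. The red medians of the fits without the block are -0.029, 0.22 and 0.24, and those at 12 h move to 0.081 and 0.12 with it.

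The arrays differed in how high the 36 genes stood as a set. Relative to each gene's own mean over the 8 arrays, the median deviation was -0.034, -0.34 and 0.19 on untreated replicates 1, 2 and 3, 0.041, -0.32 and 0.026 at 6 h, and 0.046 and 0.27 on 12 h replicates 1 and 3. The replicate 2 arrays therefore stood lowest in both groups that have one: each of them held the lowest value of 15 of the 36 genes. The highest value lay on 12 h replicate 3 for 13 genes and on untreated replicate 3 and 6 h replicate 1 for 7 each. Over all genes tested the same deviations ran from -0.078 to 0.11, and over 47 genes of G1/S and DNA replication they were -0.34 and -0.24 on the replicate 2 arrays and between -0.034 and 0.18 on the others. The replicate 2 arrays are also those with the high median signal given above. Median signals ran from 21.8 to 24.9 on the replicate 1 arrays and from 14.2 to 15.6 on the replicate 3 arrays. The lowest was that of 12 h replicate 3, where the 36 genes stood highest. At 6 h, however, the 36 genes stood slightly lower on replicate 3 than on replicate 1 (0.026 and 0.041). The part of the median signal in the result was not tested.

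**Figure D2:**
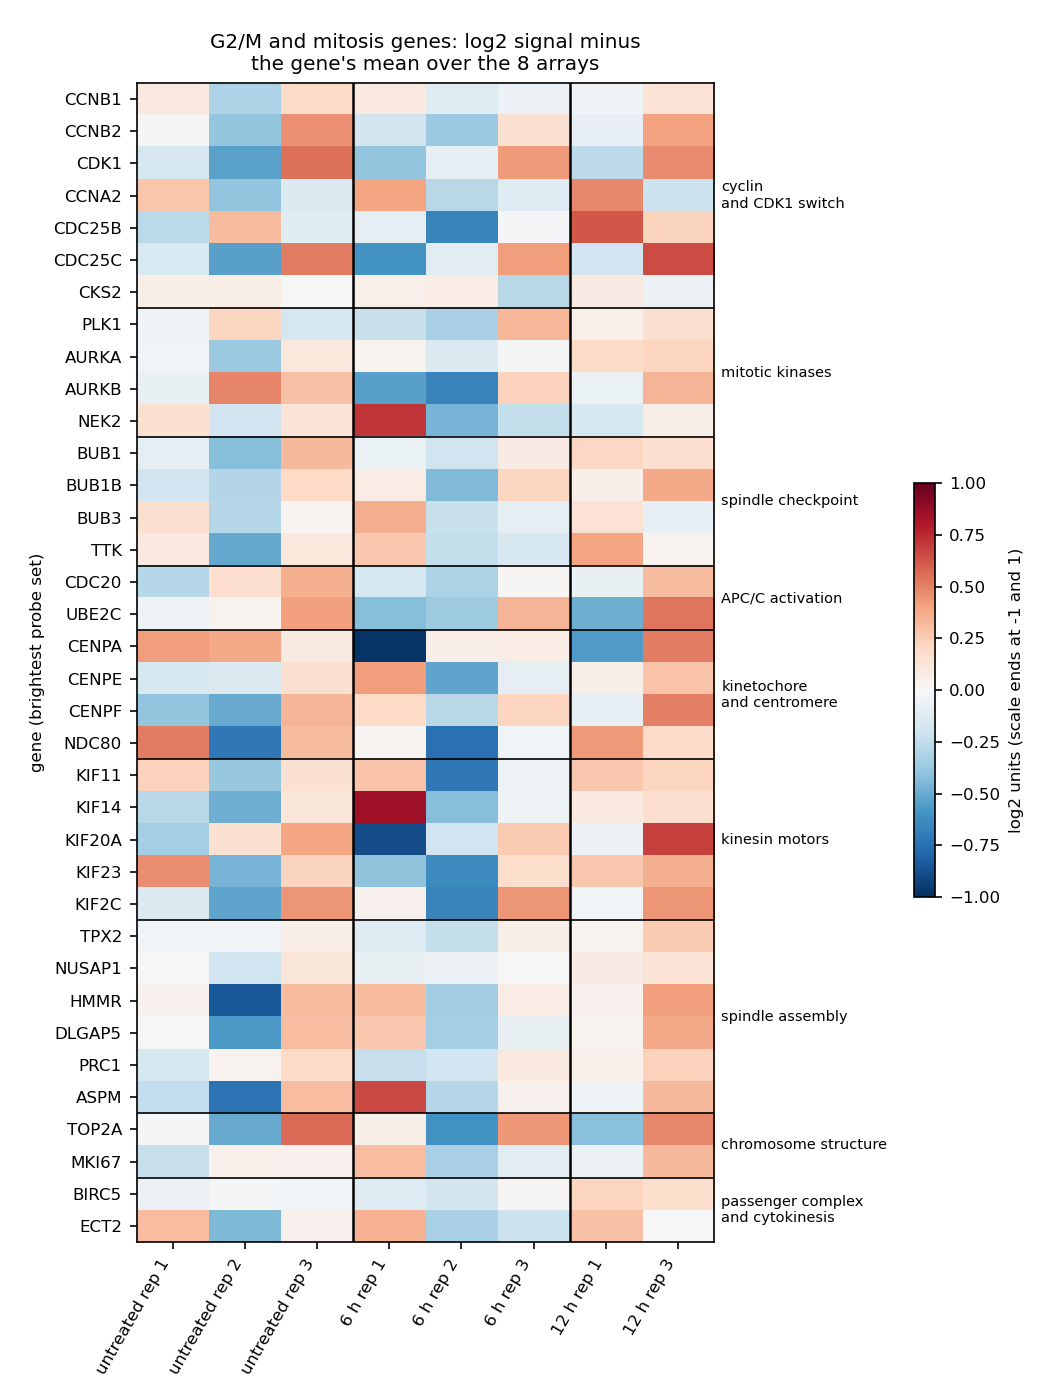
Log2 signal of each of the 36 genes (rows, ordered by role) on each of the 8 arrays (columns) minus the gene's mean over the arrays; red is above and blue below that mean, and the colour scale ends at -1 and 1. Both replicate 2 columns are mostly blue (median deviations -0.34 and -0.32), and the 12 h replicate 3 column is mostly red (0.27).

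Set against the array of the same replicate number, the differences at 12 h were smaller than those of the group means. For 12 h minus untreated, 23 of 36 genes lay above 0 in replicate 1 (median 0.070, against 57.2% of all genes) and 22 of 36 in replicate 3 (median 0.046, against 51.8%). For 12 h minus 6 h, replicate 1 had 20 of 36 above 0 (median 0.088, against 52.4%) and replicate 3 had 33 of 36 (median 0.21, against 49.96%). For 6 h minus untreated, replicates 1, 2 and 3 had 21, 17 and 5 of 36 above 0 with medians of 0.045, -0.068 and -0.13, against 52.7%, 52.8% and 51.3% of all genes above 0. In all 3 pairs at 6 h, CCNA2 was higher and AURKB, UBE2C, CENPA, NDC80, KIF20A, KIF23, TPX2 and PRC1 were lower (13.6% of all genes were higher and 10.4% lower in all 3 pairs). The second CCNA2 probe set was lower in all 3 pairs. It gave 428, 394 and 569 on the untreated arrays and 313, 279 and 565 at 6 h. In both pairs of 12 h against untreated, 17 of 36 genes were higher and 8 were lower (CCNB1, CCNB2, CDK1, NEK2, BUB3, NDC80, TOP2A and ECT2), against 34.0% and 25.02% of all genes. In both pairs from 6 h to 12 h, 18 of 36 genes were higher and 1, KIF2C, was lower, against 25.96% and 23.6% of all genes.

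The regulatory sequence of the genes was set beside these values because the group is known for a shared promoter layout: CCAAT boxes, which NF-Y binds, upstream of a CHR element (cell cycle genes homology region), which the DREAM and MuvB complexes bind. The RefSeq promoter table (GRCh38.p14) held 30 of the 36 genes, with 39 windows; BIRC5, TTK, AURKA, BUB3, UBE2C and TPX2 were not matched. Only the 250 bases before each annotated start were searched, on both strands, for CCAAT, for the CHR words TTTGAA and TTTAAA, and for the E2F words TTTGGCGC and TTTCCCGC and TTTGCCGC and TTTCGCGC. CCAAT was found in 30 of 39 windows (76.9%) and in 32.01% of all 35116 windows in the table, a CHR word in 25 of 39 (64.1%) against 21.9%, and both in 22 of 39 (56.4%) against 7.64%. An E2F word was found in 3 of 39 windows (7.69%) against 2.79%. Windows of 1 gene can overlap, and counted by gene CCAAT was found in 26 of 30 genes (37.0% of all genes in the table) and a CHR word in 23 of 30 (25.5%). A match is a run of letters and not a shown binding site. The windows of CCNB1, CDK1 and PLK1, the core of the mitotic switch, and of CDC25B, KIF23 and KIF20A, which had the smallest p-values between 6 h and 12 h, follow 5′ to 3′, with CCAAT and CHR matches on either strand (read as ATTGG and TTCAAA where the match is on the opposite one) in capitals; for CDK1 and CDC25B, which have several starts, the most upstream one is shown.
CCNB1, chr5:69166900-69167149, plus strand: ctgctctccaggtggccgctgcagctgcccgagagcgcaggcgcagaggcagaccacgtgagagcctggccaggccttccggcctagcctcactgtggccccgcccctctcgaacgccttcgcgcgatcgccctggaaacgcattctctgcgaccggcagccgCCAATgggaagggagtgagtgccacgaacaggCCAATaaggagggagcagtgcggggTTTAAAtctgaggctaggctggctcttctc
CDK1, chr10:60778081-60778330, plus strand: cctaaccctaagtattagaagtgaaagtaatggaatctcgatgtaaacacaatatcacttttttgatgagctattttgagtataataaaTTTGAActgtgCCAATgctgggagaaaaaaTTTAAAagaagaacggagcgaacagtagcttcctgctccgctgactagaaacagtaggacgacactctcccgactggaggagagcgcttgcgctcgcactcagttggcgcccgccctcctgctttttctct
PLK1, chr16:23678639-23678888, plus strand: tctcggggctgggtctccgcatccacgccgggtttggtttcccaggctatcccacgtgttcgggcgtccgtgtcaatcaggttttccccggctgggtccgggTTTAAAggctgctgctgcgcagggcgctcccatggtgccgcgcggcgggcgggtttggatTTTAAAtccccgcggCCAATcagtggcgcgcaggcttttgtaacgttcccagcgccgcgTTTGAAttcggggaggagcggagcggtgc
CDC25B, chr20:3786701-3786950, plus strand: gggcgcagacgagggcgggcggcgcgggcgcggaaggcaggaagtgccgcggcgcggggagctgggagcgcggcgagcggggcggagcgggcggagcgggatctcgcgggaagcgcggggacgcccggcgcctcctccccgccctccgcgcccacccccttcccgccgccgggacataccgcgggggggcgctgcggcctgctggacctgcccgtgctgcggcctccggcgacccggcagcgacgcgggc
KIF23, chr15:69414099-69414348, plus strand: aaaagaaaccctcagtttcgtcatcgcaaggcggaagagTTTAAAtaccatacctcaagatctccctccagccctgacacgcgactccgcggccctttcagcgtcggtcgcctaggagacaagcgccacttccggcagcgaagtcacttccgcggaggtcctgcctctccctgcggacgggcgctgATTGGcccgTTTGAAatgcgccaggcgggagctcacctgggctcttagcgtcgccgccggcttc
KIF20A, chr5:138178862-138179111, plus strand: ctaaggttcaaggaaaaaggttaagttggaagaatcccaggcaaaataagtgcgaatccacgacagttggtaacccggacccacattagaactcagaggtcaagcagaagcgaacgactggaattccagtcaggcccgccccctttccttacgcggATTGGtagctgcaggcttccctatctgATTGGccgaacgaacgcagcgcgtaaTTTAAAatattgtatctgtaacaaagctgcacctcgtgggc

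In CCNB1 the matches stand as CCAAT at -87 and -55 and TTTAAA at -30, counted in bases from the start to the first letter of the match. KIF20A has the same order, with CCAAT matches at -94 and -67 on the opposite strand and TTTAAA at -41. In KIF23 a CCAAT match at -64 stands beside TTTGAA at -55, and in PLK1 a CCAAT match at -73 stands between TTTAAA at -88 and TTTGAA at -29. The second CDK1 start, downstream of the one shown, has CCAAT matches at -78 and -46 and TTTGAA matches at -69 and -13. It also has the E2F word TTTCGCGC at -128. CDC25B has no match in the window shown, and 1 CCAAT match in 2 of its 3 other windows. Between 6 h and 12 h the median log2 difference was 0.21 for the 23 genes with a CHR match and 0.26 for the 7 without one, which was not tested.

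**Figure D3:**
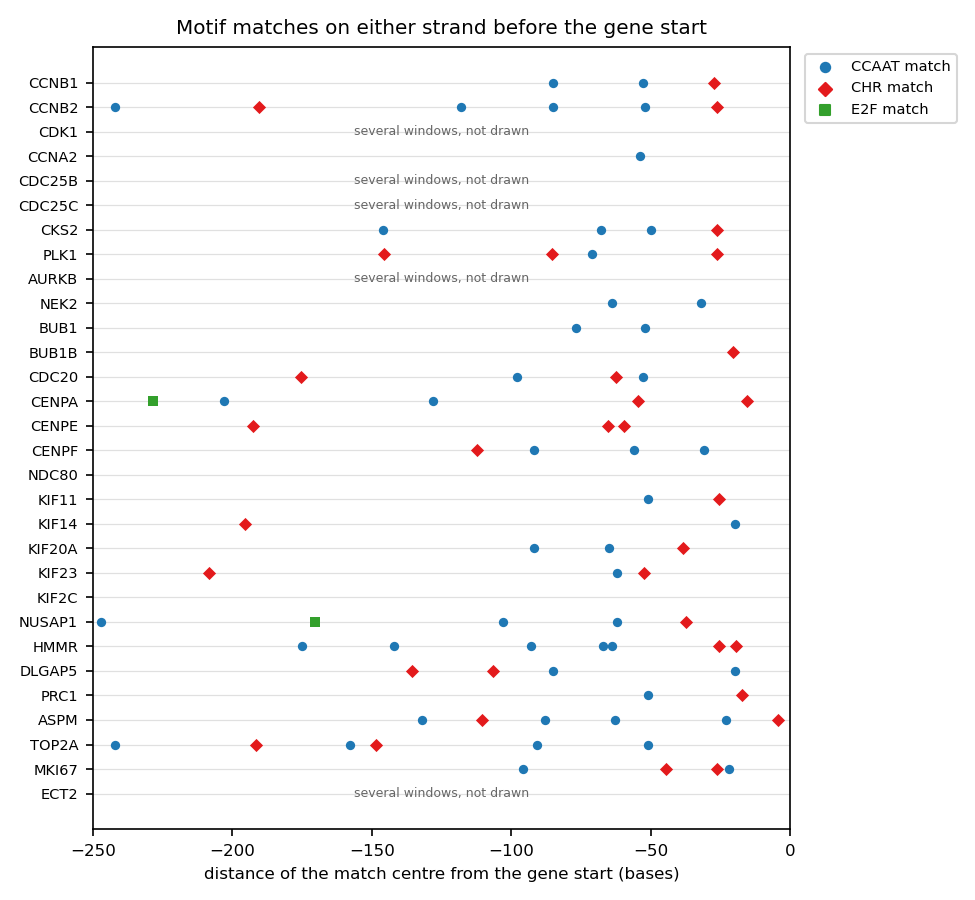
Position of each CCAAT, CHR and E2F match (centre of the match, in bases from the annotated start, x axis) for the genes with 1 window in the RefSeq promoter table; genes with several windows are marked and not drawn. In CCNB1 and KIF20A both CCAAT matches (circles) lie upstream of the CHR match (diamond), and NDC80 and KIF2C have no match in the window.

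Among the cyclins and the CDK1 switch, 2 of 7 genes lay above the untreated mean at 6 h by their brightest probe sets. At 12 h 6 of 7 did, and the medians at 6 h and 12 h were -0.038 and 0.16. With the replicate number as a block, 5 of 7 lay above 0 at 12 h and the median was 0.020; CCNB1, CCNB2 and CDK1 were lower at 12 h than untreated in both pairs of equal number. CCNB1, cyclin B1, gave signals of 1729, 1305 and 1845 on the untreated arrays, 1733, 1490.1 and 1553 at 6 h and 1581 and 1784 at 12 h. Its groups overlapped throughout, with log2 differences of -0.018 ± 0.22 at 6 h and 0.062 ± 0.25 at 12 h (95% interval -0.47 to 0.59), and -0.037 ± 0.14 at 12 h with the block. CDK1, the kinase it activates, gave 1989, 1543 and 3268 on the untreated arrays, 1705, 2097 and 3001 at 6 h and 1868 and 3102 at 12 h, and its highest values in all 3 groups were those of replicate 3. Its difference at 12 h was 0.16 ± 0.35, and 0.020 ± 0.16 with the block. CDC25B, a phosphatase that activates CDK1 complexes, gave 297, 445 and 328 on the untreated arrays, 334, 226 and 354 at 6 h and 550.1 and 418 at 12 h. Both 12 h arrays stood above all 6 h arrays, but untreated replicate 2 lay between the 12 h values. The difference between 12 h and 6 h was 0.68 ± 0.31 (1.6-fold, 95% interval 0.013 to 1.35, limma unadjusted p = 0.0463, Benjamini-Hochberg adjusted p = 0.99998), and with the block 0.67 ± 0.29. CDC25C, the related phosphatase, had 0.32 ± 0.42 in the same comparison, CCNB2 (cyclin B2) 0.29 ± 0.30 and CCNA2 (cyclin A2, active from S phase to early mitosis) 0.13 ± 0.32. CKS2, a small subunit of CDK complexes, had 0.062 ± 0.23, and its 8 signals lay between 2048 and 2625.

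The 4 mitotic kinases had a median of -0.049 at 6 h and 0.013 at 12 h, with 1 and 2 of 4 above 0. PLK1, which drives centrosome maturation and mitotic entry, gave 224, 266 and 204 on the untreated arrays, 196, 184 and 289 at 6 h and 238 and 257 at 12 h, with all groups overlapping and a difference of 0.11 ± 0.30 at 12 h. AURKA, the centrosomal Aurora kinase, gave 1164, 918 and 1278 on the untreated arrays, 1217, 1074 and 1172 at 6 h and 1355 and 1376 at 12 h. Both 12 h arrays were above every other array, by little: the highest array of the other groups was untreated replicate 3. The log2 difference was 0.30 ± 0.24 against untreated cells (95% interval -0.23 to 0.83) and 0.24 ± 0.24 against 6 h. The second AURKA probe set gave 961 and 1149 at 12 h, and its groups overlapped. On that probe set untreated replicate 3 gave 995, and 6 h replicates 1 and 3 gave 994 and 1002. AURKB, the Aurora kinase of the chromosomal passenger complex, gave 271, 402 and 349.9 on the untreated arrays, 196, 179.5 and 336 at 6 h and 272 and 362 at 12 h. Replicates 1 and 2 at 6 h lay below all other arrays, whereas replicate 3 was close to its untreated counterpart. The difference at 6 h was -0.56 ± 0.30 (95% interval -1.21 to 0.088, limma unadjusted p = 0.0847, adjusted p = 0.99989), and at 12 h -0.10 ± 0.34. NEK2, a centrosome kinase, had its highest signal on 6 h replicate 1 (a signal of 629.7, where the remaining 7 ranged from 277 to 427) and differences of -0.025 ± 0.31 and -0.080 ± 0.34.

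**Figure D4:**
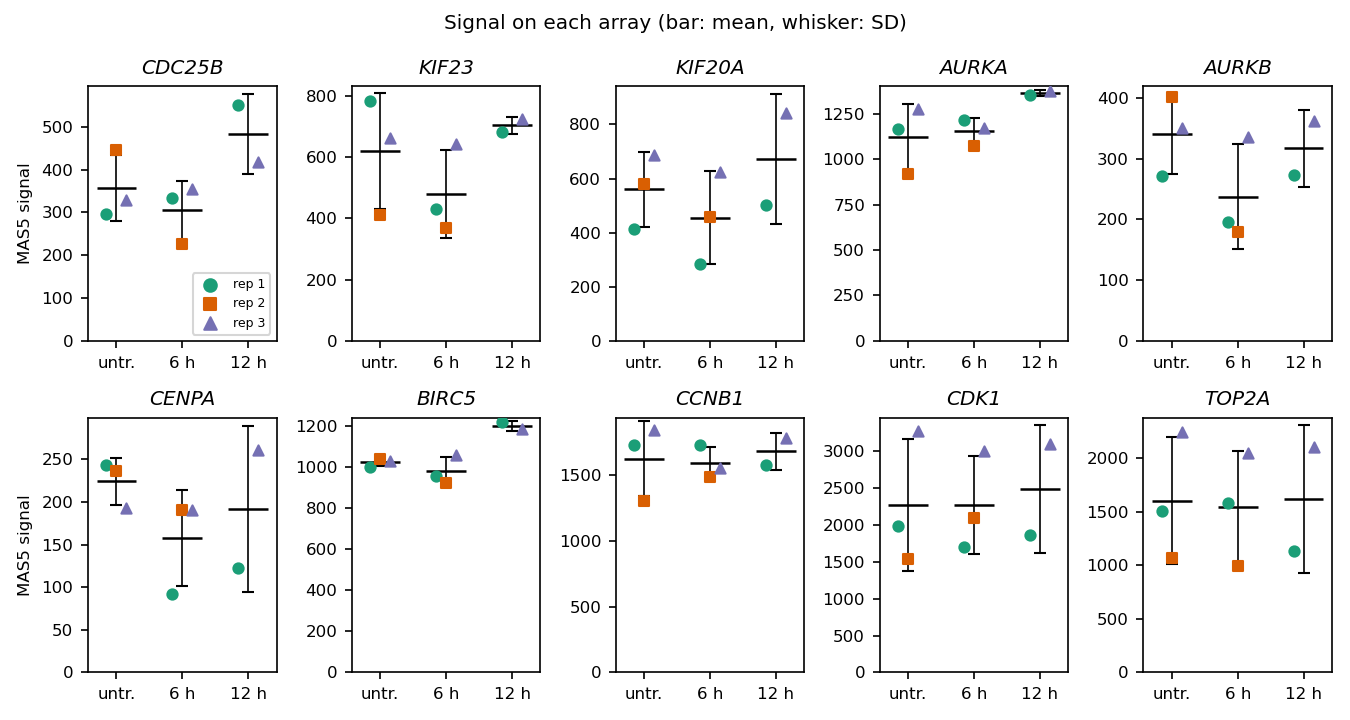
MAS5 signal (y axis, from 0) of 10 of the 36 genes on each array by group (x axis); the symbol and colour give the replicate number, bars the group mean and whiskers the SD (n = 3, 3 and 2). In the probe sets drawn, the brightest of each gene, both 12 h arrays lie above all other arrays for AURKA and BIRC5. CDK1 and TOP2A are highest in replicate 3 of every group in these probe sets.

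By their brightest probe sets, all 4 spindle checkpoint genes had positive differences in the 3 comparisons. The medians were 0.047 at 6 h, 0.28 at 12 h and 0.25 from 6 h to 12 h. With the block the medians of the 2 comparisons at 12 h were 0.15 and 0.12, with 3 of 4 above 0 in each. BUB1B, which encodes the checkpoint protein BUBR1, gave 968, 908 and 1278 on the untreated arrays, 1170.2, 819 and 1291 at 6 h and 1155 and 1447 at 12 h, with overlap between all groups and a difference of 0.31 ± 0.28 at 12 h. TTK, the kinase MPS1 that starts the checkpoint, gave 1101, 720.5 and 1104 on the untreated arrays, 1235, 873 and 921 at 6 h and 1354 and 1055 at 12 h, with 0.32 ± 0.28. In TTK the 12 h replicate 1 array was the highest of all, and 12 h replicate 3 lay below both untreated replicates 1 and 3. BUB1, a checkpoint kinase at kinetochores, had both 12 h arrays (498 and 485) above the 6 h arrays (377 to 458) but below untreated replicate 3 (541). BUB3, the adaptor of BUB1 and BUBR1, had 0.064 ± 0.26 at 12 h, and with the block -0.059 ± 0.13 against untreated cells and -0.11 ± 0.13 against 6 h. The second BUB3 probe set (mean signal 1352, brightest 1432) had -0.062 at 6 h, -0.14 at 12 h and -0.078 from 6 h to 12 h. In the same order the third had 0.088, 0.13 and 0.047, and the fourth -0.038, -0.20 and -0.17. Of the APC/C side, CDC20, its mitotic activator, had -0.24 ± 0.27 at 6 h and 0.042 ± 0.30 at 12 h. UBE2C, the ubiquitin-conjugating enzyme that works with it, had -0.28 ± 0.30 and -0.11 ± 0.33, and its 12 h arrays were the lowest and the highest of all 8 (1251 and 2533).

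At kinetochores and centromeres, CENPA, the histone H3 variant that marks centromeres, gave 243, 236 and 193 on the untreated arrays, 92.1, 189.9 and 191 at 6 h and 123 and 261 at 12 h. The 6 h arrays lay below all untreated arrays, though the highest of them was close to untreated replicate 3, and 12 h replicates 1 and 3 lay on both sides of the untreated values. The difference at 6 h was -0.58 ± 0.36 (95% interval -1.36 to 0.21, limma unadjusted p = 0.137, adjusted p = 0.99989). CENPF, a late-cycle kinetochore protein, gave 704, 650.5 and 1169 on the untreated arrays, 1062, 764 and 1072 at 6 h and 872 and 1311 at 12 h, with 0.23 ± 0.28 at 6 h and 0.40 ± 0.32 at 12 h. Replicate 3 was the highest CENPF array of each group, and the groups overlapped. NDC80, which couples kinetochores to microtubules, gave 973, 414 and 846 on the untreated arrays, 693, 404 and 667 at 6 h and 909.98 and 776 at 12 h. Its replicate 2 arrays were the lowest in both groups that have one; the difference from 6 h to 12 h was 0.56 ± 0.37, and 0.24 ± 0.16 with the block. CENPE, a kinetochore motor, had 0.22 ± 0.31 at 12 h. The median of the 4 genes at 12 h was 0.24 against untreated cells and 0.015 with the block.

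The 5 kinesin motors had a median of -0.17 at 6 h and 0.25 at 12 h, the latter with all 5 above 0; with the block the 12 h median was 0.018. KIF23, a midzone kinesin needed for cytokinesis, gave 782, 412 and 662 on the untreated arrays, 429, 367 and 641 at 6 h and 683 and 723 at 12 h. The 12 h arrays lay above the 6 h arrays and inside the untreated range, with 0.59 ± 0.33 from 6 h to 12 h (95% interval -0.12 to 1.31) and 0.37 ± 0.21 with the block. KIF20A, a kinesin of the central spindle, gave 413, 580.2 and 686 on the untreated arrays, 283, 456 and 626 at 6 h and 502 and 841 at 12 h. Within each group replicate 1 was lowest and replicate 3 highest, so the groups overlapped while both pairs were higher at 12 h than at 6 h. The difference from 6 h to 12 h was 0.59 ± 0.37, and 0.63 ± 0.17 with the block (limma unadjusted p = 0.00622, adjusted p = 0.972). KIF14, a midbody kinesin, gave 573, 494 and 755 on the untreated arrays, 1248, 517 and 670.3 at 6 h and 739.6 and 776 at 12 h. The 6 h replicate 1 array stood far above the other 7, and without it the 6 h difference of 0.34 ± 0.31 was -0.022. KIF11, the motor that separates spindle poles, had 0.41 ± 0.33 from 6 h to 12 h, and KIF2C, which depolymerises microtubules, 0.26 ± 0.36.

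The 6 spindle assembly genes all lay above 0 at 12 h against untreated cells, between 0.13 and 0.39, with a median of 0.22 and of 0.11 with the block. HMMR, a spindle and hyaluronan-binding protein, gave 1087, 586 and 1317 on the untreated arrays, 1313, 829 and 1113 at 6 h and 1087 and 1402 at 12 h, with 0.39 ± 0.34 at 12 h and 0.13 ± 0.19 with the block. The untreated replicate 2 array was the lowest, and both 12 h arrays lay within the range of untreated and 6 h arrays or just above it. ASPM, a spindle pole protein, gave 864, 613 and 1265 on the untreated arrays, 1617, 839 and 1053 at 6 h and 987 and 1279 at 12 h, with its highest signal, like KIF14, on 6 h replicate 1. TPX2, which activates AURKA on the spindle, had 0.25 ± 0.23 from 6 h to 12 h, PRC1, which bundles midzone microtubules, 0.25 ± 0.24, DLGAP5 0.25 ± 0.31 and NUSAP1, which binds spindle microtubules, 0.15 ± 0.23. For chromosome structure, TOP2A, the topoisomerase that untangles sister chromatids, gave 1505, 1068 and 2239.8 on the untreated arrays, 1580.03, 997 and 2046 at 6 h and 1132 and 2108 at 12 h. Its 12 h arrays were near the low and the high end of the untreated range, and the difference was 0.011 ± 0.38. Both pairs of equal number were lower at 12 h than untreated (-0.41 and -0.088), and the block gave -0.26 ± 0.15. The second TOP2A probe set was higher at 12 h in both pairs. It gave 1542 and 1500 on untreated replicates 1 and 3 and 1600 and 1686.5 at 12 h, with 0.25 ± 0.29. MKI67, the proliferation marker Ki-67, gave 273, 332 and 329.9 on the untreated arrays, 395, 256 and 295 at 6 h and 308 and 401 at 12 h, with 0.18 ± 0.29. Its further probe sets had larger differences at 12 h, 0.51 ± 0.32, 0.33 ± 0.38 and 0.43 ± 0.35. In the first of these both 12 h arrays (354 and 393) lay above all others, the next being 6 h replicate 3 (346). BIRC5, survivin of the chromosomal passenger complex, gave 1002, 1037 and 1028 on the untreated arrays, 957, 923 and 1055 at 6 h and 1217 and 1182 at 12 h. Its untreated arrays lay close together (SD 18.3), and both 12 h arrays were above all others, with 0.23 ± 0.23 against untreated cells and 0.30 ± 0.23 against 6 h. ECT2, the exchange factor that starts the cleavage furrow, had 0.18 ± 0.30.

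Other probe sets of the same genes often disagreed in sign with the brightest ones. Of the 36 genes, 21 had further probe sets that passed the filter, 37 in all. At 12 h against untreated cells 17 of the 37 lay above 0 with a median of -0.022, and 19 had the sign of the brightest probe set of their gene; from 6 h to 12 h the numbers were 19, 0.0024 and 20. NUSAP1 shows the disagreement: its second probe set gave 533, 739 and 1321 on the untreated arrays, 302, 623 and 1103 at 6 h and 154 and 1288 at 12 h, against 1981, 1719 and 2145 on the untreated arrays, 1875, 1892 and 1973 at 6 h and 2088 and 2170.4 at 12 h for the brightest. The second probe set was lowest on 12 h replicate 1, where the brightest was among the highest. The BUB1 probe set next in brightness likewise gave 55.2 and 336 on 12 h replicates 1 and 3, where the brightest gave 498 and 485. In BIRC5 the second brightest probe set had both 12 h arrays (503 and 577) above all others, as the brightest did, whereas the third brightest gave 156 and 463. Of the 37 further probe sets, 11 had their lowest signal relative to the brightest one on 12 h replicate 1, the array with an ACTB ratio of 2.29, and 2 to 6 on each of the other arrays; the part of RNA integrity in this was not tested.

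A wider list of other G2/M genes had smaller medians at 12 h. Of 98 listed genes 95 were tested, and 0 passed limma with Benjamini-Hochberg adjustment in any comparison. At an unadjusted p under 0.05 there were 0, 1 and 1 at 6 h, at 12 h and from 6 h to 12 h, against 0.655%, 0.613% and 0.73% of all genes. The medians of the 95 were -0.025, 0.14 and 0.17, and 0.028 and 0.071 in the last 2 comparisons with the block. Above 0 were 44, 69 and 70 of 95, against 53.0%, 59.9% and 57.2% of all genes. The 12 h arrays lay above all untreated arrays for 13 of 95 genes, against 9.6% of all genes. They lay above all 6 h arrays for 12 of 95, against 7.1%. In the lower direction the 12 h arrays lay below all untreated arrays for 2 of 95, CDKN1A (by little) and GADD45A, against 4.89% of all genes. Below all 6 h arrays they lay for 0 of 95, against 4.5%. FOXM1, a transcription factor of G2/M genes, gave 179.6, 215 and 206 on the untreated arrays, 248, 178 and 216 at 6 h and 377 and 258 at 12 h. Both 12 h arrays were above all others, with 0.64 ± 0.30 against untreated cells (limma unadjusted p = 0.0514, adjusted p = 0.99994) and 0.61 ± 0.25 with the block. MYBL2, which encodes B-MYB, had 0.20 ± 0.28.

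The condensin gene NCAPH had 0.72 ± 0.33 at 12 h against untreated cells (limma unadjusted p = 0.0468, adjusted p = 0.99994). TACC3, a spindle protein that AURKA phosphorylates, had signals of 255, 245 and 286 on the untreated arrays, 138, 184 and 321 at 6 h and 361 and 406 at 12 h, with both 12 h arrays above all others and 0.93 ± 0.35 from 6 h to 12 h (limma unadjusted p = 0.0189, adjusted p = 0.99998). CDCA5 (sororin, which protects cohesion) had 0.61 ± 0.31 and the chromokinesin KIF4A 0.50 ± 0.26 at 12 h. At 6 h the smallest p-values of the list belonged to CDC16, an APC/C subunit (0.55 ± 0.30), CEP55, an abscission protein (-0.35 ± 0.22), and CDC25A, the phosphatase of earlier cell cycle steps (-0.56 ± 0.43). The list grouped 10 tested genes as inhibitors, among them FBXO5, which inhibits APC/C and not mitotic entry (0.073 at 12 h). Of these 10 genes, 3 lay above 0 at 6 h and 6 at 12 h, with medians of -0.058 and 0.082. With the block 3 of 10 lay above 0 at 12 h and the median was -0.049. WEE1 had 0.28 ± 0.26, PKMYT1 -0.32 ± 0.38 and the stress gene GADD45A -0.20 ± 0.24 at 12 h. CDKN1A, the CDK inhibitor p21, gave 136, 142 and 115 on the untreated arrays, 283, 113 and 153 at 6 h and 115 and 112 at 12 h; 6 h replicate 1 was the highest and the other 7 arrays lay between 112 and 153.

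Genes of the earlier cell cycle steps were set beside these values. The 47 tested genes of G1/S and DNA replication had medians of -0.052, 0.16 and 0.23 in the 3 comparisons, with 20, 39 and 38 above 0, next to -0.029, 0.22 and 0.24 for the 36 G2/M and mitosis genes. The block moved their 12 h medians to 0.045 and 0.098. The 11 replication-dependent histone genes tested had medians of -0.52, 0.12 and 0.44, and -0.20 and 0.23 in the 12 h comparisons with the block. No test of a difference between these lists was made.

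Across the processing alternatives, the median of the 36 G2/M and mitosis genes at 12 h against untreated cells lay between 0.042 and 0.31 over 22 of the 23 alternatives, and was 0.80 when every array was centred on its median, which moved the median of all genes to 0.66. From 6 h to 12 h the range was 0.096 to 0.37, and 0.83 with centring (all genes 0.65). At 6 h it ran from -0.16 without untreated replicate 2 to 0.071 without 6 h replicate 2, on both sides of 0.

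**Figure D5:**
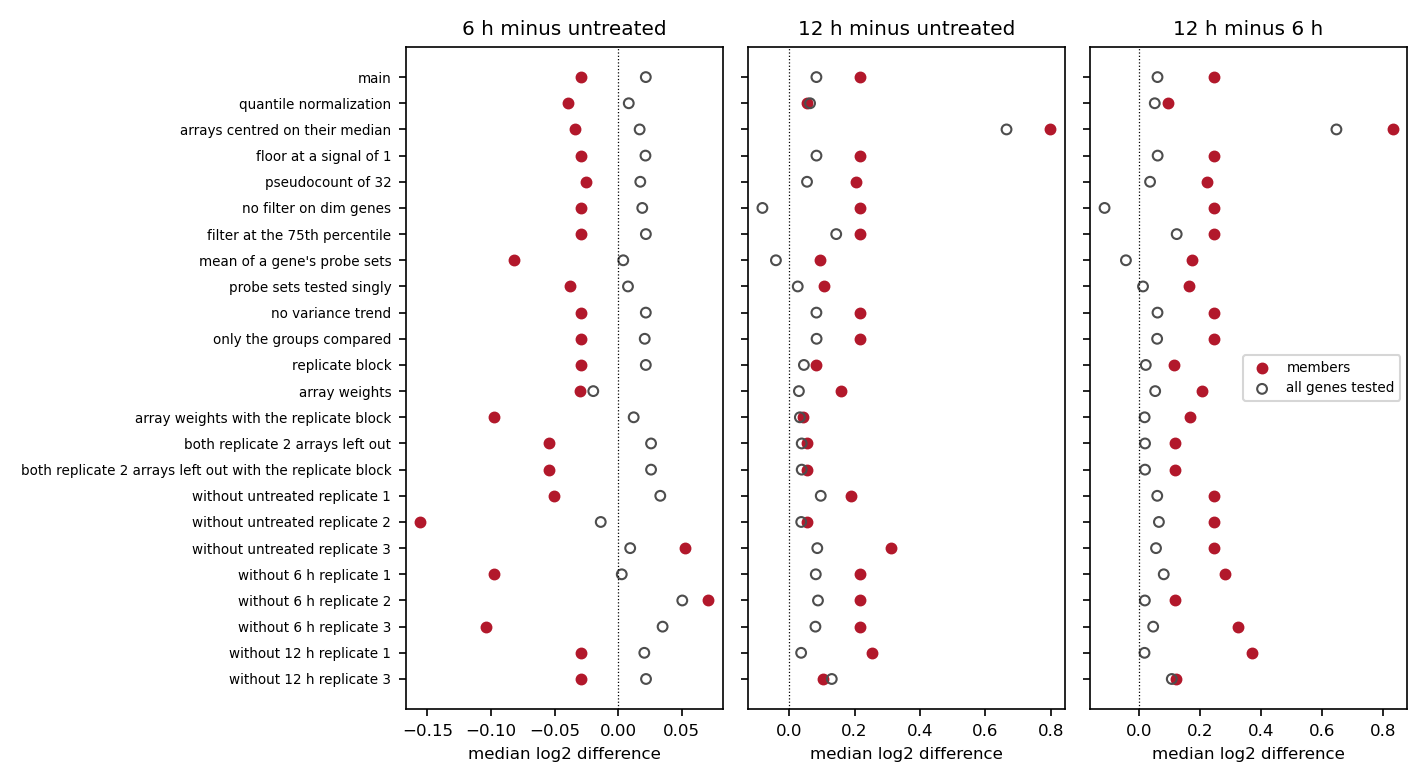
Median log2 difference (x axis) of the 36 genes (filled) and of all genes tested (open) in each of the 3 comparisons under each processing alternative (y axis), with the reported setting, named main, on top. The filled points at 12 h stay above 0 in every setting shown (0.042 to 0.80 and 0.096 to 0.83), and those at 6 h lie on both sides of it.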

How the data were processed

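RNA of 8 Saos-2 samples was hybridised to Affymetrix arrays. The authors deposited intensity values as MAS5 signals, per the submitters' processing notes, and all arrays have a trimmed mean of 100.01. Probe sets were named by the platform annotation: 41091 have 1 symbol, 1801 several, 11721 none, and 62 controls were left out. Signals were set to at least the 10th percentile (2.386) and taken to log2, with no further normalization. The brightest probe set per gene was kept, and 12063 genes with a mean log2 signal above 4.2159 (the median of all probe sets) were tested with limma 3.58.1 in R 4.3.3, 3 groups in 1 fit, two-sided, with Benjamini-Hochberg adjustment and a threshold of 0.05. The script was tested on simulated data. The number of arrays limits the precision. The members and gene lists were chosen with earlier results of these data known. Array values are given for the 6 genes with the smallest p in each comparison and for CCNB1, CDK1, PLK1, AURKA, TOP2A and MKI67. Other G2/M genes named are FOXM1, MYBL2, WEE1, PKMYT1, CDKN1A, GADD45A and the 3 with the smallest p in each comparison. Equal replicate numbers were taken to pair arrays, since all 7 such pairs correlated in their deviations from the group means (r 0.11 to 0.64, other pairs -0.58 to 0.33). The labels state no pairing. With 2 arrays at 12 h their deviations mirror each other, so the values there are not independent. The 12 h replicate 1 array correlated more with untreated and 6 h replicate 2 (0.33 and 0.295) than with replicate 1 (0.11 and 0.16). The check therefore does not establish the pairing at 12 h. Promoter windows came from RefSeq (GRCh38.p14).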

Additional observations from a re-analysis of the deposited data

How the results depend on the processing

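No alternative gave a call: 0 of the 36 genes and 0 genes in all passed limma with Benjamini-Hochberg adjustment in any comparison, with quantile normalization, centring, other floors, filters and pseudocounts, the mean of a gene's probe sets, probe sets tested singly, no variance trend, only the groups compared, the replicate block, array weights, or any array left out. Among the 6 genes with the smallest p in each comparison, 3 values changed sign. With the mean of a gene's probe sets, ASPM at 6 h was -0.14 and AURKB from 6 h to 12 h was -0.20; leaving out single arrays, KIF14 at 6 h ran from -0.022 (without 6 h replicate 1) to 0.61. The cause was not tested. Centring each array on its median gave medians for the 36 genes of 0.80 at 12 h and 0.83 from 6 h to 12 h, with all genes at 0.66 and 0.65. Leaving out single arrays gave -0.16 to 0.071 at 6 h, 0.055 to 0.31 at 12 h and 0.12 to 0.37 from 6 h to 12 h. The replicate block, which pairs arrays of equal number, gave 0.081 and 0.12 and no call; at an unadjusted p under 0.05 it held 2, 0 and 2 of the 36 genes and 493, 262 and 297 of 12063. With 2 arrays at 12 h, the median of the 36 genes at 12 h rests on 2 values; the SD of that median between arrays of a group was 0.22.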
